A study of Mus musculus with 5 samples.

Results

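The 8 genes examined here are Klf2 with its relatives Klf3 and Klf6, Cd69, and the receptors S1pr1, S1pr4, S1pr5 and Ccr7, out of 56691 gene IDs in the count table. Klf2 and Cd69 were chosen by their higher RNA level in Fli1 KO than in NTC, in an earlier look at these same libraries, and the other members for their roles beside them. The members' differences between the groups are therefore a description. All 8 matched 1 gene ID each and all 8 had enough counts to be tested among 30580 genes. RNA was measured in natural killer (NK) cells of mouse spleen after CRISPR editing, with Fli1 KO as the label of 3 libraries and NTC as that of 2. FLI1 is an ETS-family transcription factor. The labels give no guide sequence, culture condition, mouse strain or number of animals, so it is unknown whether the libraries come from separate animals, and p-values reflect no more than the spread among these 5 libraries.

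A lymphocyte leaves spleen, lymph node or bone marrow by moving towards sphingosine 1-phosphate (S1P), a lipid that is abundant in blood and lymph and scarce within tissue. KLF2, a zinc-finger transcription factor of quiescent lymphocytes, activates the S1P receptor gene S1pr1 in T cells. CD69 is a membrane protein that appears early after activation, binds S1PR1 and takes it off the cell surface, so it acts on the receptor protein and not on its RNA. NK cells also use S1PR5 to leave bone marrow and lymph nodes. The comparison asks whether a higher level of Klf2 RNA was accompanied by higher RNA of the genes KLF2 is known to activate.

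Klf2 and Klf6 RNA were higher in the Fli1 KO libraries, while every Fli1 KO value of Klf3 lay below both NTC values. The sequences upstream of these 3 genes are shown because the genes belong to one family and their differences lay in opposite directions. They are RefSeq promoter windows of build GRCm38.p6, cut short where either RefSeq or GENCODE starts the gene, with matches to the MEF2 or EGR motifs below in capitals. Klf2 is at chr8:72318812-72319032, Klf3 at chr5:64803271-64803387 and Klf6 at chr13:5861239-5861481, all on the plus strand.
Klf2: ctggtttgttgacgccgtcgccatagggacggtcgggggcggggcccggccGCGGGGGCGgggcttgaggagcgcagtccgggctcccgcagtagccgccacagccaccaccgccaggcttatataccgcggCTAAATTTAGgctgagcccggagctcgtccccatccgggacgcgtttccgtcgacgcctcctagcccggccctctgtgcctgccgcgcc
Klf3: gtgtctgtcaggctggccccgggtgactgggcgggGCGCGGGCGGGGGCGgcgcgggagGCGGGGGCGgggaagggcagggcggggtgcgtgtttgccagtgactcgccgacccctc
Klf6: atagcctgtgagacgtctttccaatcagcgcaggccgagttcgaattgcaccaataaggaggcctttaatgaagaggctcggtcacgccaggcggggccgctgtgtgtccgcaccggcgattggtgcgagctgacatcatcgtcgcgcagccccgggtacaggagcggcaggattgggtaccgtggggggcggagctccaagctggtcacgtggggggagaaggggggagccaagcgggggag

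Promoter windows, each with 250 bases before and 50 after the RefSeq start, were at hand for 5 of the 8 genes, namely Klf2, Klf3, Klf6, S1pr4 and S1pr5. Both strands were searched for the motifs MEF2 (CTA, any 4 bases, TAG), EGR (GCGNGGGCG), ETS (CCGGAA), AP-1 (TGANTCA), CRE (TGACGTCA), GC box (GGGCGG) and CACCC box (CCACCC). The Klf2 window held 1 MEF2 match, whose first base lies at -118 from the RefSeq start, and 1 EGR match at -199. The MEF2 letters were present in 3.69% of 32851 windows of the same length and the EGR letters in 5.55%. The Klf3 window held 3 EGR matches, of which those at -215 and -209 overlap. All EGR matches in both windows overlap GC box letters, which 35.7% of windows hold. The Klf6 window held a GC box as its only match. The ETS letters, present in 14.9% of windows, the AP-1 letters (7.81%) and the CRE letters (1.79%) were in none of the 5 windows. CACCC box letters, present in 31.5% of windows, were found in all of them except that of Klf6. A match of letters shows no binding, and its absence from these windows shows nothing about the factor.

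Library totals ran from 4718390 to 5643791 counts. Levels are given in CPM, a gene's count relative to the library total after TMM scaling. Fli1 RNA itself averaged 357 ± 34.9 CPM in Fli1 KO (SD, n = 3) and 301 ± 30.6 CPM in NTC (SD, n = 2). The position of the guide is not given, so this RNA does not check the labels. Counts on olfactory and vomeronasal receptor genes, which NK cells do not use, set a background of 1.38 to 1.78 CPM per kb of exon. All 10 NK markers examined, among them Ncr1, Eomes and Prf1, lay over 3 times this background. NTC 1 and NTC 2 differed from each other by a root mean square of 0.36 on the log2 scale over 7605 genes above 3 times background, against 0.23 to 0.34 between Fli1 KO libraries. Between the groups the values ran from 0.32 to 0.53, and NTC 1 lay nearer to Fli1 KO 3 (0.32) and Fli1 KO 2 (0.33) than to NTC 2. NTC 2 also had the largest summed level of 7 erythroid and platelet markers, 51.2 CPM against 22.2 to 27.5 CPM in Fli1 KO libraries and 27.0 CPM in NTC 1. Of these 7 markers 0 averaged over 3 times background, and background alone would sum to 19.2 to 24.6 CPM. Values without each NTC library are given where they matter. Such a fit keeps only the other NTC library, so p-values and calls from it carry little weight. The same holds for a fit with replicate numbers as a block, a pairing the labels do not give.

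Klf2 stood at 52.1, 50.3 and 51.4 CPM in Fli1 KO 1 to 3, against 13.5 and 9.19 CPM in NTC 1 and NTC 2. The Fli1 KO libraries lay close together and far above both NTC libraries. The gene (ENSMUSG00000055148, GRCm38 chromosome 8, 72319033 to 72321656, plus strand) had a log2 fold change of 2.16 (SE 0.18, 95% interval 1.79 to 2.53). In counts, the Fli1 KO libraries held 258, 282 and 255 reads and the NTC libraries 78 and 44. With the background of each library subtracted, Klf2 stood at 49.2, 47.2 and 48.7 CPM in Fli1 KO and at a mean of 8.44 CPM in NTC, where NTC 2 alone had 5.91 CPM. At a level this low in NTC, the size of the fold is less certain than its direction. The log2 fold change was 2.50 without NTC 1 and 1.93 without NTC 2.

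Cd69, whose product keeps activated lymphocytes in tissue, stood at 176, 135 and 163 CPM in Fli1 KO 1 to 3 and at 41.6 and 38.0 CPM in NTC 1 and NTC 2. The lowest Fli1 KO value was far above the higher NTC value. The gene (ENSMUSG00000030156, GRCm38 chromosome 6, 129267325 to 129275436, minus strand) had a log2 fold change of 1.99 (SE 0.15, 95% interval 1.67 to 2.31). It lay between 1.91 and 2.11 when any 1 library was left out. Klf2 counts per Cd69 count were 0.296, 0.372 and 0.316 in Fli1 KO and 0.325 and 0.242 in NTC, so the ratio of these genes overlapped between the groups.

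Klf6, an early response gene that encodes a zinc-finger activator, was the most abundant member per kb of exon. It stood at 393, 317 and 376 CPM in Fli1 KO 1 to 3 and at 189 and 155 CPM in NTC 1 and NTC 2, with no overlap. The gene (ENSMUSG00000000078, GRCm38 chromosome 13, 5861482 to 5870394, plus strand) had a log2 fold change of 1.07 (SE 0.15, 95% interval 0.76 to 1.38), which ran from 0.94 to 1.24 with 1 library left out. A gene is called here where its edgeR quasi-likelihood p, adjusted with Benjamini-Hochberg over all 30580 genes, is under 0.05. Klf2, Cd69 and Klf6 were the 3 members called higher, beside 0.458% of all genes tested, and 0 were called lower, beside 0.0883%. At an unadjusted p under 0.05 there were 4 members, the 3 above and Klf3, beside 8.94% of all genes. DESeq2 and limma-voom also called 3 higher and 0 lower. With library size alone as the scaling, the calls over all genes split into 92 higher and 71 lower, against 140 higher and 27 lower here, and the median of all genes moved to -0.14. Every Fli1 KO library lay above both NTC libraries for 3 members, beside 11.9% of all genes, and below both for 3, beside 13.7%, or 25.6% in either direction. Since the members were picked with this comparison known, nothing is read from these counts.

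Klf3, which encodes a repressor of the same family that binds similar sites, stood at 37.7, 43.0 and 35.9 CPM in Fli1 KO 1 to 3, against 51.7 and 70.8 CPM in NTC 1 and NTC 2. All Fli1 KO values were lower, and the NTC values were the more scattered. Klf3 lay at 2.21 times background in Fli1 KO and at 3.43 times in NTC, and with background subtracted it averaged 21.3 CPM in Fli1 KO and 43.5 CPM in NTC, for an expected background of 17.6 CPM in Fli1 KO and 17.8 CPM in NTC. The gene (ENSMUSG00000029178, GRCm38 chromosome 5, 64803388 to 64832901, plus strand) had a log2 fold change of -0.65 (SE 0.15, 95% interval -0.97 to -0.33). It missed the call by little (edgeR adjusted p = 0.0581) and was called under 6 of the alternatives, 5 settings with all libraries and the fit without NTC 1. Without NTC 1 the log2 fold change was -0.84 and without NTC 2 it was -0.40, so its size rests on NTC 2. An antisense gene, Gm20033, shares 404 exon bases with Klf3, and the strand setting of the counting is not given, so reads there cannot be assigned with certainty. Gm20033 had 7.87, 7.13 and 5.24 CPM in Fli1 KO and 5.72 and 10.2 CPM in NTC, at 1.48 times background. These values do not show how reads on the shared bases were counted.

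**Figure D1:**
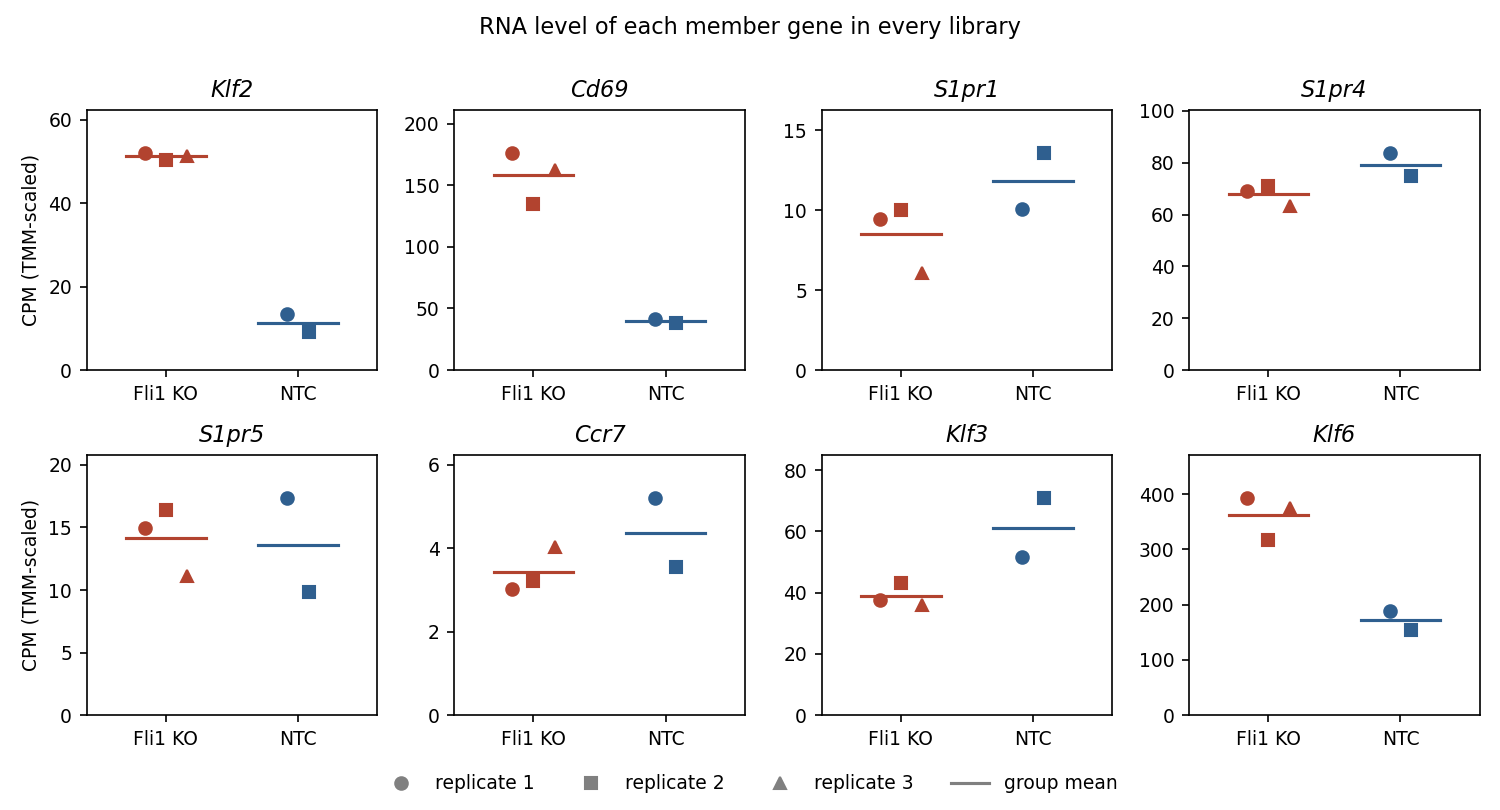
RNA level of the 8 genes in each library, in TMM-scaled CPM on axes that start at 0, with Fli1 KO (3 libraries) left of NTC (2 libraries), symbols for replicate numbers and lines for group means. Klf2, Cd69 and Klf6 lie higher in every Fli1 KO library, S1pr1, S1pr4 and Klf3 lie lower, and S1pr5 and Ccr7 overlap.

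S1pr1, the receptor that CD69 opposes and the best known target of KLF2, did not follow Klf2. It stood at 9.48, 9.99 and 6.05 CPM in Fli1 KO 1 to 3 and at 10.1 and 13.6 CPM in NTC 1 and NTC 2. All Fli1 KO values were the lower ones, though Fli1 KO 2 and NTC 1 differed little, at 56 and 58 counts. The gene (ENSMUSG00000045092, GRCm38 chromosome 3, 115710433 to 115715072, minus strand) had a log2 fold change of -0.46 (SE 0.24, edgeR adjusted p = 0.592). The 95% interval ran from -0.94 to 0.03, or from 0.520-fold to 1.02-fold. These levels averaged 1.78 times background in Fli1 KO and 2.45 times in NTC. With background subtracted, S1pr1 stood at 4.85, 4.84 and 1.56 CPM in Fli1 KO and at 5.84 and 8.17 CPM in NTC. A signal this near background limits what its fold change can show. The log2 fold change was -0.65 without NTC 1 and -0.23 without NTC 2.

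S1pr4, an S1P receptor of lymphoid and myeloid cells, was the most abundant S1P receptor RNA per kb of exon in both groups. It stood at 69.2, 71.2 and 63.5 CPM in Fli1 KO 1 to 3 and at 83.7 and 74.8 CPM in NTC 1 and NTC 2. The Fli1 KO values all lay below the NTC values, by little in the nearest pair. The gene (ENSMUSG00000044199, GRCm38 chromosome 10, 81497747 to 81500132, minus strand) had a log2 fold change of -0.22 (SE 0.13, 95% interval -0.50 to 0.05, edgeR adjusted p = 0.663). At 18.3 times background in Fli1 KO and 21.5 times in NTC, background hardly enters this value.

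S1pr5, the receptor that T-bet and ZEB2 support in NK cells, overlapped between groups. It stood at 14.9, 16.4 and 11.1 CPM in Fli1 KO 1 to 3 and at 17.3 and 9.82 CPM in NTC 1 and NTC 2. The NTC libraries held both the highest and the lowest value. An opposite-strand gene, Gm48303, shares 51 exon bases with S1pr5 and lay at 0.842 times background. The gene (ENSMUSG00000045087, GRCm38 chromosome 9, 21242912 to 21248443, minus strand) had a log2 fold change of 0.04 (SE 0.23, 95% interval -0.43 to 0.52, edgeR adjusted p = 0.981). Its sign depended on the NTC library kept, with 0.55 without NTC 1 and -0.28 without NTC 2, and it was -0.06 without Fli1 KO 2. Library size alone as the scaling gave -0.09, and a fit on genes over 3 times background gave -0.06. Among genes that bear on S1pr5, Tbx21, which encodes T-bet, stood at 75.9, 68.5 and 73.6 CPM in Fli1 KO and at 95.2 and 107 CPM in NTC. Its log2 fold change was -0.48 (SE 0.13, edgeR adjusted p = 0.145), and it was called lower without NTC 1, with library size alone, with a filter of 5 CPM, among genes over 3 times background and with the replicate block. Zeb2 stood at 106, 113 and 111 CPM in Fli1 KO and at 108 and 94.6 CPM in NTC (log2 fold change 0.11, SE 0.13, edgeR adjusted p = 0.869).

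Ccr7, the receptor that guides lymphocytes into lymph nodes, was not separable from background. It stood at 3.03, 3.21 and 4.03 CPM in Fli1 KO 1 to 3 and at 5.20 and 3.55 CPM in NTC 1 and NTC 2, from 15 to 30 counts a library. The groups overlapped, with Fli1 KO 3 above NTC 2. The gene (ENSMUSG00000037944, GRCm38 chromosome 11, 99144196 to 99155077, minus strand) lay at 1.12 times background in Fli1 KO and at 1.46 times in NTC. Its log2 fold change of -0.37 (SE 0.32, edgeR adjusted p = 0.796) is therefore no measure of a receptor's RNA at this depth. Of the S1P receptors outside the set, S1pr2 had 20.6 ± 2.51 CPM in Fli1 KO (SD, n = 3) and 24.9 ± 1.28 CPM in NTC (SD, n = 2), at 1.78 times background. S1pr3 lay at 0.589 times background and was not detectable.

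**Figure D2:**
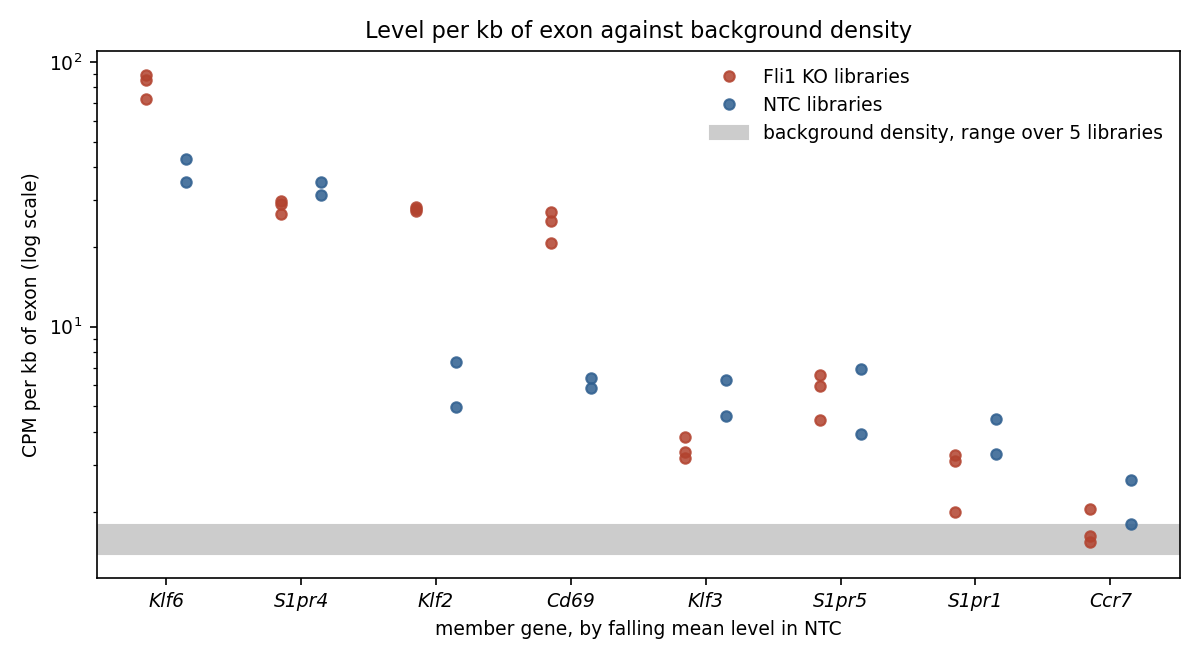
CPM per kb of exon on a log axis for each gene and library, Fli1 KO left of NTC, with the range of the background density as a grey band from 1.38 to 1.78 CPM per kb. Klf6, S1pr4, Klf2 and Cd69 stand clear of the band in every library, S1pr1 lies near it and Ccr7 reaches it.

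Per kb of exon, the order of mean levels in Fli1 KO was Klf6 (82.4 CPM per kb), S1pr4 (28.5), Klf2 (27.7), Cd69 (24.3), S1pr5 (5.66), Klf3 (3.46), S1pr1 (2.79) and Ccr7 (1.73). In NTC it was Klf6 (39.2 CPM per kb), S1pr4 (33.2), Klf2 (6.15), Cd69 (6.12), Klf3 (5.45), S1pr5 (5.43), S1pr1 (3.88) and Ccr7 (2.21). In Fli1 KO the libraries of S1pr4 overlapped those of Klf2 and Cd69 in level, as did those of Klf3 and S1pr1 and those of S1pr1 and Ccr7. In NTC, Klf2, Cd69, Klf3 and S1pr5 overlapped one another and S1pr5 overlapped S1pr1, whereas S1pr4 stood well above Klf2. Exon length here is the union over all annotated transcripts, 11243 bases for Klf3 and 6509 for Cd69, so genes with long alternative exons read low on this scale.

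**Figure D3:**
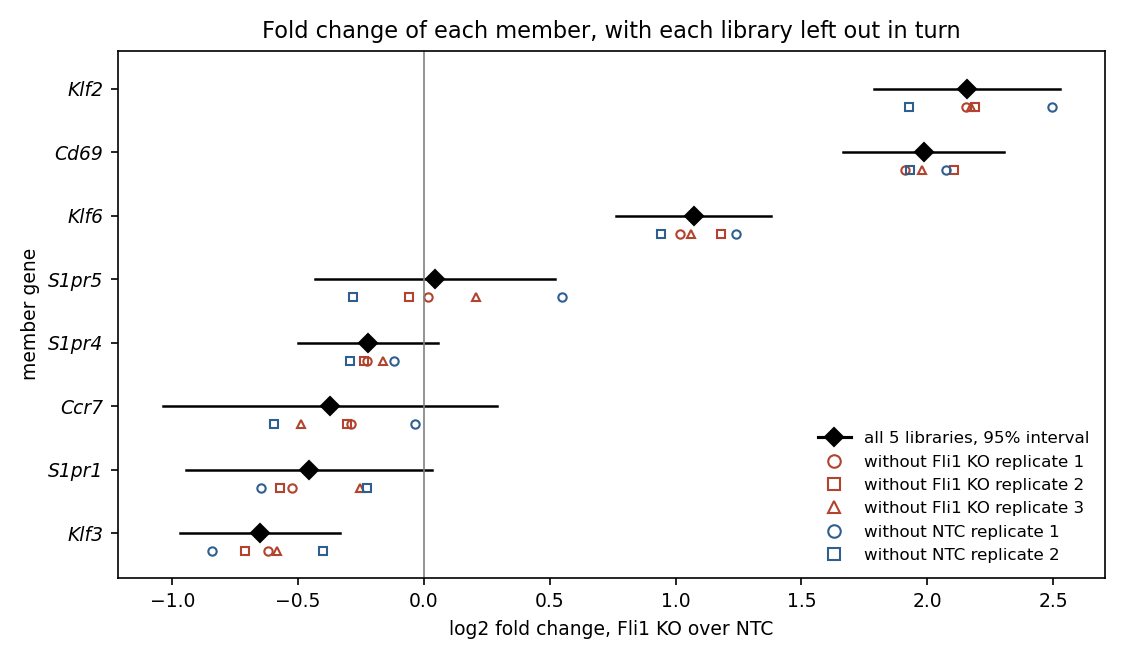
Log2 fold change, Fli1 KO over NTC, of each gene with all 5 libraries (black, with the 95% interval) and with each library left out in turn (open symbols, red for Fli1 KO and blue for NTC libraries). Klf2, Cd69 and Klf6 stay at or above 0.94 in every fit shown, while S1pr5 runs from -0.28 to 0.55.

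Other genes that KLF2 is known to activate lay in both directions. Itgb7, an integrin chain for homing to gut, had 124, 95.8 and 109 CPM in Fli1 KO and 139 and 164 CPM in NTC, with no overlap and a log2 fold change of -0.47 (SE 0.14, edgeR adjusted p = 0.212). It was called lower without NTC 1, with library size alone, among genes over 3 times background and with the replicate block. Cdkn1a, the cell cycle inhibitor p21, lay the other way, at 51.9, 24.4 and 39.9 CPM in Fli1 KO and 19.4 and 13.2 CPM in NTC (log2 fold change 1.23, SE 0.33, edgeR adjusted p = 0.266). It was called higher by DESeq2, with the replicate block, without NTC 1 and without Fli1 KO 2. Itgb7 and Cdkn1a were named after their values were seen. Of the 6 genes on this list edgeR called 0, beside 0.546% of all genes, limma-voom 0 and DESeq2 1. An unadjusted p under 0.05 was found for 3, beside 8.94% of all genes. The median log2 fold change of the list was -0.21, beside -0.02 over all genes tested. Il6ra, Thbd and Nos3 were at or below background.

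Klf2 counts per S1pr1 count were 5.49, 5.04 and 8.50 in Fli1 KO 1 to 3 and 1.34 and 0.677 in NTC 1 and NTC 2. Per Itgb7 count there were 0.420, 0.525 and 0.471 Klf2 counts in Fli1 KO and 0.0971 and 0.0562 in NTC. The groups did not overlap in either ratio. Klf2 was chosen for its higher level in Fli1 KO, so the direction of these ratios is a description and supports nothing further. In these bulk libraries, fewer cells of a type and less RNA per cell cannot be told apart. B cells also express S1pr1 and Ccr7, and the summed level of 8 B cell markers was 115 to 131 CPM in Fli1 KO and 147 to 154 CPM in NTC (exact permutation test over 10 splits, two-sided, p = 0.1, the smallest these samples allow). Of these 8 markers only Ighm, at 51.2 to 64.7 CPM in Fli1 KO and 71.0 to 86.0 CPM in NTC, lay over 3 times background, and none of the other 7, Cd79a among them, did. Their part in the S1pr1 values was not tested. Summed T cell markers were 61.9 to 71.2 CPM in Fli1 KO and 61.4 to 67.1 CPM in NTC, with Trac as the 1 of 9 over 3 times background. Of the 7 endothelial and stromal markers, Pecam1 alone did so.

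**Figure D4:**
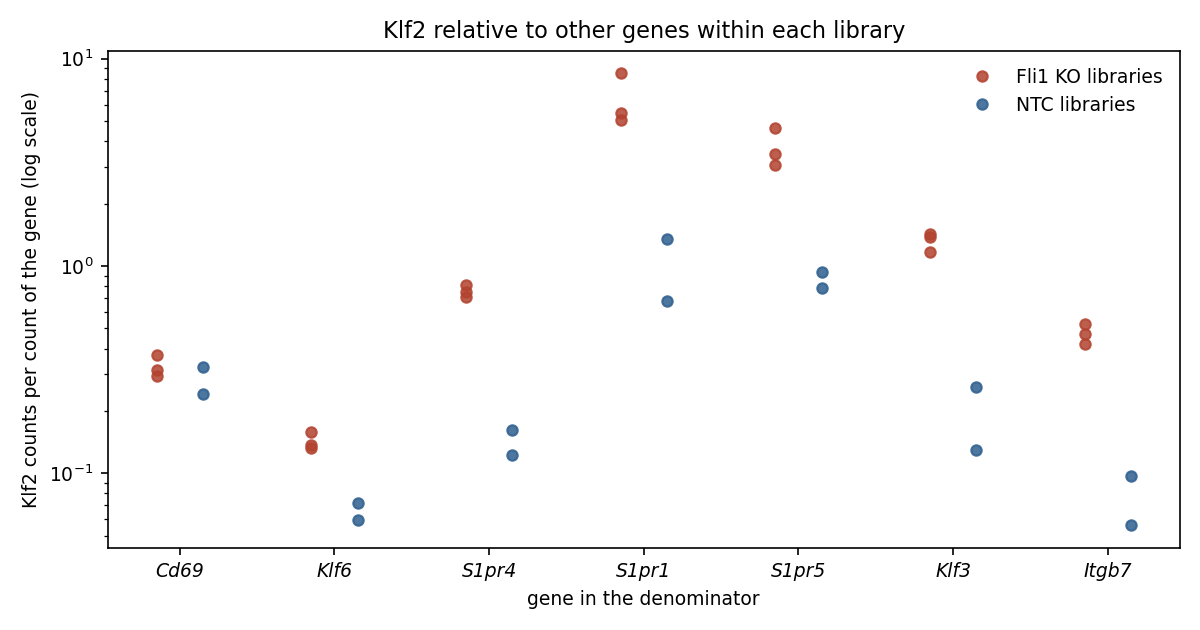
Klf2 counts per count of each gene named on the horizontal axis, on a log axis, Fli1 KO libraries left of NTC libraries. The ratio to Cd69 overlaps between groups, and all other ratios shown are higher in every Fli1 KO library.

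The genes that control Klf2 include the FOXO factors and the kinase route through MEK5 and ERK5 to MEF2, whose letters are capitals in the Klf2 sequence above. Of 12 such genes edgeR called 0, beside 0.546% of all genes (DESeq2 and limma-voom 0 each). With so small a share over all genes, 0 calls in so short a list say little about it. At an unadjusted p under 0.05 there were 2, beside 8.94% of all genes, and the median log2 fold change was 0.13. Mef2d, a MEF2 factor, had the smallest p, with 139, 131 and 143 CPM in Fli1 KO 1 to 3 and 102 and 102 CPM in NTC 1 and NTC 2 (log2 fold change 0.44, SE 0.13, edgeR adjusted p = 0.210). Every Fli1 KO value lay above both NTC values. Mef2d was called higher with the replicate block (edgeR adjusted p = 0.0136), a fit that called 921 genes against 167 in the main fit. Mef2a, named after its values were seen, was called higher with the block (edgeR adjusted p = 0.00654). Mef2a was not called in the main fit (log2 fold change 0.44, SE 0.14, edgeR adjusted p = 0.251). Its log2 fold change was 0.63 without NTC 1 and 0.30 without NTC 2. Foxo1, a direct activator of Klf2 in T cells, stood at 105, 103 and 103 CPM in Fli1 KO and at 91.4 and 90.5 CPM in NTC (log2 fold change 0.19, SE 0.13, edgeR adjusted p = 0.724).

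Among the 14 other genes of the KLF family edgeR called 0, beside 0.546% of all genes (DESeq2 and limma-voom 0 each). At an unadjusted p under 0.05 there were 2, beside 8.94% of all genes, and 5 lay over 3 times background. Klf13, a regulator of the chemokine gene Ccl5 in T cells, was the most abundant, at 246, 264 and 252 CPM in Fli1 KO and 226 and 223 CPM in NTC (log2 fold change 0.18, SE 0.13, edgeR adjusted p = 0.755). Klf15 had the smallest p (log2 fold change -1.08, edgeR adjusted p = 0.350) but lay at 0.672 times background. Klf13, and Itga1 below, were named after their values were seen.

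In the S1P system beyond the receptors edgeR called 0 genes, beside 0.546% of all genes, so the 0 says little about these lists. Of 13 genes that make, break down or export S1P, 2 had an unadjusted p under 0.05, beside 8.94% of all genes. DESeq2 and limma-voom called 0 of them each. Spns2, an S1P exporter, had the smallest p, at 26.2, 13.4 and 19.1 CPM in Fli1 KO and 10.1 and 10.7 CPM in NTC (log2 fold change 0.91, SE 0.24, edgeR adjusted p = 0.115), at 2.48 times background. It was called higher without Fli1 KO 2 (1.15), without NTC 1 (0.89), with no filter and with the replicate block. Of 16 genes of receptor signalling and trafficking, 0 were called by DESeq2 and 0 by limma-voom. An unadjusted p under 0.05 was found for 1, beside 8.94% of all genes. That gene was Arrb1, an arrestin that takes receptors off the surface, at 355, 325 and 349 CPM in Fli1 KO and 267 and 215 CPM in NTC (log2 fold change 0.51, SE 0.14, edgeR adjusted p = 0.145). It was called higher without NTC 1 (0.69) and with the replicate block. The medians were -0.17 for S1P metabolism and 0.05 for receptor signalling.

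Of 13 other homing receptors and adhesion genes, edgeR called 0, beside 0.546% of all genes, limma-voom 0 and DESeq2 1. An unadjusted p under 0.05 was found for 1, beside 8.94% of all genes. Cxcr3, a receptor for interferon-induced chemokines, stood at 16.3, 23.0 and 17.7 CPM in Fli1 KO and at 29.1 and 54.7 CPM in NTC, the NTC values far apart (log2 fold change -1.12, SE 0.24, edgeR adjusted p = 0.0677). The log2 fold change was -1.50 without NTC 1, where it was called, and -0.60 without NTC 2, where it was not.

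Of 13 genes that mark or control tissue-resident lymphocytes or bear on S1pr5, 2 were called higher and 1 lower by edgeR, beside 0.458% and 0.0883% of all genes. Bhlhe40, a transcription factor of resident T cells, stood at 536, 405 and 494 CPM in Fli1 KO and at 281 and 190 CPM in NTC (log2 fold change 1.02, SE 0.17, edgeR adjusted p = 0.00308). Rgs1, which dampens chemokine and S1P receptor signals, stood at 135, 94.7 and 135 CPM in Fli1 KO and at 61.2 and 70.8 CPM in NTC (log2 fold change 0.88, SE 0.16, edgeR adjusted p = 0.00695). Xcl1, a chemokine gene, fell to 119, 149 and 141 CPM in Fli1 KO, against 283 and 221 CPM in NTC (log2 fold change -0.89, SE 0.14, edgeR adjusted p = 0.00241). All 3 lost the call without Fli1 KO 1 (0.94, 0.81 and -0.79) or Fli1 KO 3 (1.01, 0.81 and -0.90), with edgeR adjusted p from 0.0759 to 0.170. In all, 10 of the 13 had an unadjusted p under 0.05, beside 8.94% of all genes, and the median log2 fold change was 0.14. The list was chosen with earlier results of these data known, so nothing further is read from this count. Itga1, an integrin chain of tissue-resident NK cells and ILC1, stood at 153, 159 and 155 CPM in Fli1 KO and at 150 and 167 CPM in NTC.

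Cd69 lies in the NK gene complex on chromosome 6, next to genes for the related Clec2 and Klrb1 lectins. The list of Cd69 neighbours held 11 Clec2 and Klrb1 genes, and whether each of them lies close to Cd69 was not tested. Of the 11, edgeR called 1, Clec2d, and it was lower, beside 0.0883% of all genes called lower. Clec2d, the gene of a ligand for the inhibitory NK receptor NKR-P1B, stood at 85.3, 78.1 and 83.8 CPM in Fli1 KO and at 134 and 137 CPM in NTC (log2 fold change -0.72, SE 0.13, edgeR adjusted p = 0.00600). It lies at chromosome 6, 129180615 to 129186534, on the plus strand. Without Fli1 KO 1 or Fli1 KO 3 it was not called (-0.73 and -0.71, edgeR adjusted p = 0.0905 and 0.192). The median of the 11 genes was -0.30, beside -0.02 over all genes tested. A positive log2 fold change was found for 2 of them, beside 14553 of all 30580 genes tested. Only 6 of the 11 lay over 3 times background.

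**Figure D5:**
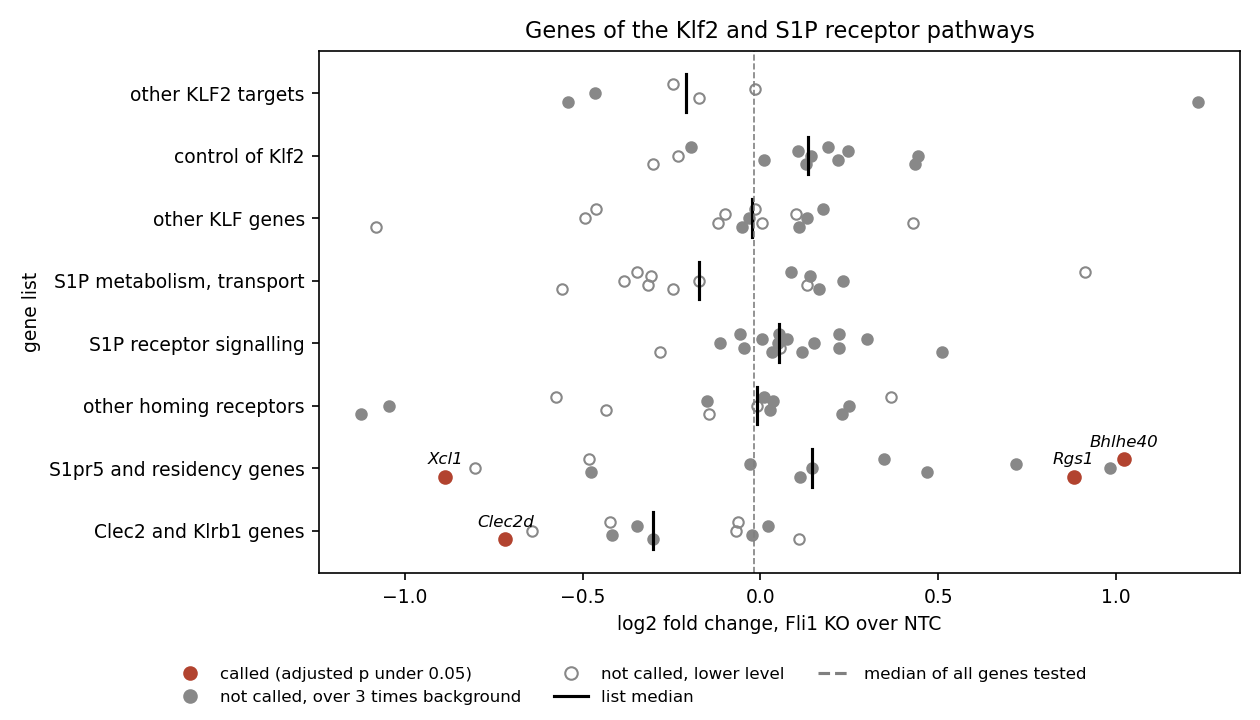
Log2 fold change, Fli1 KO over NTC, of each gene in 8 pathway lists. Red points passed the adjusted p threshold, filled grey points lie over 3 times background and open points do not, black bars are list medians and the dashed line is the median of all genes tested. Bhlhe40, Rgs1, Xcl1 and Clec2d are the 4 called genes.

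The genes whose profile over the 5 libraries was most like that of Klf2 were sought by the root mean square difference of mean-centred log2 CPM. The search covered 14534 tested genes averaging 5 CPM or more and left out genes with Gm, Rik and similar provisional symbols. Nearest to Klf2 were Rhob (0.13), Ier3 (0.16), Cd69 (0.19), Ifng (0.20) and Ier2 (0.24). Nearest to Cd69 were Ifng (0.09), Rhob (0.11), Dusp5 (0.13), Pim3 (0.15) and Junb (0.16). Ier2, Ier3, Junb, Dusp5 and Pim3 are known as genes induced early after stimulation. Rhob encodes a small GTPase and Ifng the cytokine interferon-gamma. Rhob stood at 135, 111 and 114 CPM in Fli1 KO 1 to 3 and at 34.5 and 26.3 CPM in NTC 1 and NTC 2, in the pattern of Klf2. Junb, which encodes an AP-1 protein, stood at 1044, 574 and 765 CPM in Fli1 KO and at 212 and 174 CPM in NTC, with more spread within Fli1 KO. With 5 libraries in 2 groups, the measure mostly picks genes with a like difference between the groups.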

How the data were processed

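RNA of mouse spleen NK cells was measured in 5 libraries, 3 Fli1 KO and 2 NTC, grouped by their labels. Per the labels' protocols, libraries were made with a kit that includes an enrichment step, and no probe panel is named. Per the submitters' processing notes, FastQC 0.12.0, Trimmomatic 0.39, STAR 2.7.11 and mm10 were used. The sources used here do not give the counter, strand setting or annotation release. The authors deposited whole-number counts per Ensembl ID, not normalized. Symbols (52073 of 56691 IDs), coordinates and exon lengths came from GENCODE M21 on GRCm38, and promoters from RefSeq.

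Genes were kept with filterByExpr at its default minimum of 10 counts (30580 of 52871 with any count) and scaled with TMM. Fli1 KO was compared with NTC in edgeR 4.0.16 (R 4.3.3) with the robust quasi-likelihood test and Benjamini-Hochberg adjustment. SEs came from the coefficient and its F statistic, and intervals are 95%. Background was the count density over 5432.638 kb of exon in 1455 vomeronasal and olfactory receptor genes on autosomes. That this density holds for all genes was not tested. The scripts were tested on simulated data. Alternatives were other scalings, other filters, each library left out, a replicate block, DESeq2 1.42.0 and limma-voom (limma 3.58.1).

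The members and the 8 pathway lists were chosen with earlier results of these data known. Named genes are the members, called list genes or else the 1 with the smallest p per list, and S1pr2, S1pr3, Foxo1, Tbx21, Zeb2, genes overlapping a member and the 5 genes nearest in profile to Klf2 and to Cd69. The 3 Fli1 KO and 2 NTC libraries allow 10 splits, so an exact permutation test of a single gene cannot go below 0.1. Some genes of the lists are counted but not reported here by name.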

Additional observations from a re-analysis of the deposited data

How the results depend on the processing

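Klf2, Cd69 and Klf6 kept their direction and their call under every alternative run. Over 36 results there were 396 alternative values, of which 305 kept direction and call or moved little, 81 moved further, 6 gained a call, all of Klf3, and 4 reversed, all of S1pr5. The 4 were -0.085 with library size alone, -0.059 among genes over 3 times background, -0.06 without Fli1 KO 2 and -0.28 without NTC 2. Klf3 was called lower, as the 1 member, with no filter (-0.64), with a filter of 5 CPM (-0.67), with the replicate block (-0.59), with library size alone (-0.77), with upper-quartile factors (-0.67) and without NTC 1 (-0.84). Calls over all genes were 92 higher and 71 lower with library size alone, 239 and 56 with no filter, and 59 lower among genes over 3 times background.

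Library size alone gave median log2 fold changes of -0.15 for the KLF family, 0.010 for Klf2 control, -0.34 for KLF2 targets, -0.30 for S1P metabolism, -0.072 for S1P signalling, -0.13 for homing and 0.019 for residency. Among genes over 3 times background the medians were 0.047 for Klf2 control, -0.60 for KLF2 targets, 0.030 for S1P metabolism, -0.10 for homing and 0.23 for residency. A filter of 5 CPM gave 0.061 for S1P metabolism and 0.22 for residency. KLF2 targets held 1 called gene with library size alone, with DESeq2 and among genes over 3 times background. Homing held 1 with DESeq2 factors, library size alone, no filter and DESeq2. With no filter, S1P metabolism held 1 and residency 5. Summed markers, Fli1 KO minus NTC with library size alone, were -4.32 CPM for T cells, -38.2 CPM for B cells, 1.67 CPM for dendritic cells and -24.5 CPM for endothelial and stromal cells. The cause of these shifts was not tested.

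With 1 library left out, calls over all genes ran from 46 to 703 higher and from 3 to 174 lower, and members called lower from 0 to 1. Klf2 ran from 1.93 to 2.50, Cd69 from 1.91 to 2.11, Klf6 from 0.94 to 1.24, S1pr1 from -0.65 to -0.23, S1pr4 from -0.29 to -0.12, S1pr5 from -0.28 to 0.55, Ccr7 from -0.60 to -0.04 and Klf3 from -0.84 to -0.40. List medians ran from -0.12 to 0.11 for the KLF family, 0.10 to 0.20 for Klf2 control, -0.35 to -0.059 for KLF2 targets, -0.10 to -0.019 for S1P metabolism, 0.0083 to 0.18 for S1P signalling, -0.07 to 0.01 for homing, 0.12 to 0.23 for residency and -0.41 to -0.078 for the Cd69 neighbours. Called genes ran from 0 to 1 for Klf2 control, S1P metabolism and S1P signalling, from 0 to 3 for KLF2 targets, homing and the Cd69 neighbours, and from 0 to 7 for residency.

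The labels do not say that replicate numbers pair libraries, and only 2 numbers are shared. Deviations from the group means correlated at 0.20 for the libraries numbered 1 and at 0.32 for those numbered 2 over 8083 genes. Fli1 KO 3 and NTC 1, which share no number, correlated at 0.15, and with 2 NTC libraries each value has its mirror image with the other NTC library, so these values do not establish pairing. With the replicate block, 728 genes were called higher and 193 lower. The block gave medians of 0.18 for Klf2 control and -0.045 for S1P metabolism. Called genes under the block were 2 for Klf2 control, 3 for KLF2 targets, 1 for S1P metabolism, 1 for S1P signalling, 2 for homing and 7 for residency. At this depth S1pr1 and Ccr7, from 15 to 65 counts a library, are limited by background.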
